A study of Mus musculus with 24 samples.

Results

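The genes described here are 50 cell cycle and DNA replication genes of the mouse, out of 45547 gene names on the array. They were chosen by name, as the genes that drive or mark passage through the cycle, and each was found on the array through the RefSeq transcript its probe was designed for. All 50 were on the array, with 77 probes in all, and the brightest probe of a gene over all arrays stood for it. By role they were the proliferation marker Mki67, 9 genes of replication licensing and the replication fork, 4 of nucleotide supply, 8 G1 cyclins and their kinases, 5 transcription factors, 4 mitotic cyclins with Cdk1, 9 mitotic kinases, checkpoint and anaphase-promoting complex genes, and 10 genes of the mitotic chromosome, kinetochore and spindle.

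They were measured in 2 mouse models of tumour dormancy, in which tumour cells persist in the host without growing out after a cell vaccine, and in both models the cells had been expanded in culture before RNA was taken. In the melanoma model, B16F1-GFP-M (called M, 3 arrays) is the parental line, B16F1-GFP-D (D, 4 arrays) was isolated after a year of dormancy, and B16F1-GFP-DB#1 (4 arrays), DB#2 (3 arrays) and DB#3 (3 arrays) are a second generation recovered from a brain site. All 5 derive from B16F1, a C57BL/6 melanoma line, carry green fluorescent protein (GFP) and were grown in DMEM with serum, so the parental cells share the reporter and the medium with the dormant ones. For the myeloid cells the labels give the line names M0 (4 arrays) and J365 (3 arrays), with the suffix p20 in their titles, which is not explained, and no culture medium. They do not say which of them was parental or dormant, so J365 was set against M0 by name only. Nothing in the labels says whether the arrays of a line came from separate cultures, so the p-values measure the spread between these samples, which may be technical, and each condition is represented by 1 line or, for the second generation, 3.

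Cells that enter the cycle first make D-type cyclins, which activate Cdk4 and Cdk6, and then cyclin E with Cdk2, which releases E2F transcription factors from the retinoblastoma protein. E2F switches on the genes that license origins, build the replication fork and supply nucleotides, while B-Myb, Foxm1 and the DREAM-related complexes switch on the genes of mitosis later in the cycle. Many of these genes are transcribed mainly in cycling cells and are therefore used as proliferation markers, and in bulk RNA fewer cycling cells and less RNA per cycling cell cannot be told apart.

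The promoters of these genes were searched for the letters tied to each wave. Windows of 250 bases before and 50 after the start site, taken from RefSeq (GRCm38.p6), were searched for 40 of the 50 genes. No window was searched for Mcm4, Ccnd1, Ccnd2, Ccne2, Foxm1, Myc, Ccna2, Aurkb, Kif20a and Tpx2. A gene left out here need not lack a window in RefSeq, and the shares of all genes likewise cover only the windows searched. E2F-type letters (TTTCCCGC, TTTGGCGC, TTTCGCGC or TTTGCCGC, searched on both strands, with overlapping matches allowed) stood in the windows of 6 of 12 licensing, fork and nucleotide genes (50%), in 1 of 19 mitotic genes (5.26%) and in 2.6% of all 27025 genes with a window. The 6 were Mcm3, Mcm5, Mcm6, Mcm7, Cdc6 and Cdt1, while Pcna and the nucleotide genes held no match. The cell cycle homology region or CHR (TTTGAA or TTCGAA, both strands), which the DREAM and B-Myb complexes bind, stood in 14 of the 19 mitotic genes (73.7%), in 2 of the 12 licensing, fork and nucleotide genes (16.7%) and in 21.7% of all genes. The CCAAT box (CCAAT, both strands), bound by NF-Y, stood in 16 of the 19 mitotic genes (84.2%), in 8 of the 12 (66.7%) and in 41.1% of all genes. The E-box that Myc can bind (CACGTG or CATGTG, both strands) stood in 9 of the 40 windows (22.5%), beside 22.7% of all genes. A match describes the letters and is no measured site of binding.

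The windows of 3 early genes whose levels are described later are shown with the E2F-type letters in capitals, and those of 2 mitotic genes with the CHR and CCAAT letters in capitals. They lie on GRCm38.p6 at chr8:75109259-75109558 (Mcm5, plus strand), chr1:128359656-128359955 (Mcm6, minus strand), chr10:128705002-128705301 (Cdk2, minus strand), chr9:70421505-70421804 (Ccnb2, minus strand) and chr7:122159185-122159484 (Plk1, plus strand), and each is written 5′ to 3′ along its gene. Mcm5 and Mcm6 encode 2 subunits of the replicative helicase, Cdk2 the kinase of cyclin E, Ccnb2 a mitotic cyclin and Plk1 a mitotic kinase.
Mcm5: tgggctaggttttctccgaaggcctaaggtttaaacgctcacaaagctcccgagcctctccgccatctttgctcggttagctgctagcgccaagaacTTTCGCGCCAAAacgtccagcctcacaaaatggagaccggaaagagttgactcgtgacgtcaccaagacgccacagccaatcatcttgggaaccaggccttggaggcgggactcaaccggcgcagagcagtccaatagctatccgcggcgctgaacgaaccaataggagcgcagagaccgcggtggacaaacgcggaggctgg
Mcm6: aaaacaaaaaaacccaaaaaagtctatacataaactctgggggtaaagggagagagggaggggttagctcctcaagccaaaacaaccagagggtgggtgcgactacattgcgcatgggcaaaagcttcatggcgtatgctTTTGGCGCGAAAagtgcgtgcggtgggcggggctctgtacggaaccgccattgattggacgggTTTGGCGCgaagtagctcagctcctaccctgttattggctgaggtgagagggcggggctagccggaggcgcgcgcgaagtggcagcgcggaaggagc
Cdk2: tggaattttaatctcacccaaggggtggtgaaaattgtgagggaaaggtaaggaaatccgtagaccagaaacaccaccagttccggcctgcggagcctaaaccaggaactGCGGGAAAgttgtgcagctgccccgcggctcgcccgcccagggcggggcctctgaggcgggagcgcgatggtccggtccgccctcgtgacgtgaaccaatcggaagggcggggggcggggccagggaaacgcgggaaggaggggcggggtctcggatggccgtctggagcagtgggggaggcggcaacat
Ccnb2: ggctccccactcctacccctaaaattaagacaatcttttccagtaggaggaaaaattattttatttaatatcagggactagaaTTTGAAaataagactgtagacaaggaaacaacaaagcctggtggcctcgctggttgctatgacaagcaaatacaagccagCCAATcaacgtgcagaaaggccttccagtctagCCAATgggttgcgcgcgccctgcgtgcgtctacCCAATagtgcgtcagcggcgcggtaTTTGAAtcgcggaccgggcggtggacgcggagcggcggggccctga
Plk1: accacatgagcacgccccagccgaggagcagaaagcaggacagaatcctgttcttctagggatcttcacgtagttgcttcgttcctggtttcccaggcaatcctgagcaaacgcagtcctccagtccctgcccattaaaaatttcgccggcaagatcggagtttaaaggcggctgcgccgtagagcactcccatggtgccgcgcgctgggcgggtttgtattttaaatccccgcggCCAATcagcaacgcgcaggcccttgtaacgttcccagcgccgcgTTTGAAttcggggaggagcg
In Mcm5 the pair of overlapping E2F-type matches makes 1 run of capitals, in Mcm6 a similar run is followed by a further match, and Cdk2 holds 1 match on the opposite strand. Ccnb2 holds 2 CHR and 3 CCAAT matches and Plk1 holds 1 of each.

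Values are log2 gProcessedSignal (the scanner software's background-corrected intensity) less the 75th percentile of the array, so that 0 is the array's own upper quartile, and the values of different genes are not compared because probes differ in brightness. Of the 50 genes, 48 carried the scanner software's mark for a signal well above background on all 24 arrays. Ccnd1 was well above background on the 17 melanoma arrays and on none of the 7 myeloid arrays, and Ccne2 on 16 melanoma arrays (not D replicate 1) and no myeloid array. The 24 arrays lay on 3 slides of 8, each holding all the lines, and the slide took between 0.9% and 67.2% of a gene's variance within lines over the 50 genes (median 21.2%, highest for Mcm6).

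A few arrays stood apart. On D replicate 3, 89.9% of probes were well above background, beside 43.6% to 53.8% on the other 23 arrays, and D replicate 3 held the lowest value of the 4 D arrays for 43 of the 48 genes. The 75th percentile that is subtracted from its values was the highest of all arrays (intensity 573.8, against 344.7 to 402.4 on the other D arrays). How many of all genes were lowest there was not counted, so this is not shown to be particular to the cell cycle genes. The mean levels of blood, fibroblast, endothelial and brain marker lists on D replicate 3 were the highest of the 17 melanoma arrays (−3.14, −3.03, −3.78 and −0.70), against medians of −5.54, −4.64, −5.86 and −2.71. Not every marker was highest there: Ptprc, Spi1, Col1a1, Col1a2, Pdgfra, Dcn, Lum, Kdr, Snap25 and Mbp were not, and Lum was lowest there. The other genes of these lists were highest on this array. D replicate 1 had the lowest share of probes above background. The M0 and J365 arrays whose labels carry no replicate number differed together from the 5 numbered myeloid arrays: 10 of the 50 genes were higher on both of them than on any numbered array and 3 were lower, among them Ccne1 (4.70 on the M0 array and 4.35 on the J365 array, against 3.14 to 3.47). The same count over all genes was not made, so whether these genes differed more than others is not known. The mean of 10 melanocyte markers lay between 5.29 and 5.82 in melanoma arrays and between −4.70 and −4.51 in myeloid ones, of which none read Tyrp1, Dct, Mlana, Ednrb, Slc45a2 or Oca2. Of the 10, 9 were read on all melanoma arrays and 3 on all myeloid arrays. Ednrb was low in M as well (−5.23, −4.92 and −5.01) and reached −1.55 on D replicate 3. The 10 blood markers were read on all 7 myeloid arrays, with means of 2.36 to 2.95, and Ptprc and Vav1 on no melanoma array, so the means of both lists went with the labelled cell types. Values of M0 and J365 are listed below with the array without a number first, and the others in order of their replicate numbers.

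The proliferation marker showed no loss in the dormant lines that the test could call. Mki67, which encodes the nuclear antigen Ki-67, stood at 5.40, 5.70 and 5.87 on the 3 M arrays, at 5.04, 5.66, 5.21 and 5.52 on the 4 D arrays, at 5.33, 5.42, 5.67 and 5.16 in DB#1, at 5.39, 5.89 and 5.58 in DB#2 and at 5.25, 5.66 and 5.81 in DB#3. The ranges of all 5 lines overlapped. D less M was −0.30 on the log2 scale, with a 95% interval from −0.68 to 0.09 (limma, adjusted p = 0.630).

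In D against M, 1 of the 50 genes passed the test, beside 2.97% of the 20145 genes tested (1.38% called higher), so the share of members called was close to that of the whole array. The median difference over the 50 genes was −0.01, as it was over all genes tested, with 24 genes higher and 26 lower and a range from −0.64 to 1.04. For 46 of the 50 genes the 95% interval lay inside a 2-fold change in either direction, the exceptions being Ccnd1, Ccne2, Cdk2 and Myc, and the median standard error was 0.17. At an unadjusted p under 0.05 there were 5 genes.

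The called gene was Myc, the growth-promoting transcription factor. It read 1.54, 1.12 and 1.29 in M and 2.48, 2.67, 2.01 and 2.25 in D. The ranges did not overlap, and the lowest D array was D replicate 3. D was higher by 1.04 with an SE of 0.22 and a 95% interval from 0.57 to 1.5, a 2.05-fold difference (adjusted p = 0.0106), and within the 3 slides the difference was 1.29, 0.89 and 0.71. Myc's second probe gave 1.23. The call was lost without M replicate 2 and without M replicate 3, with an adjusted p of at most 0.0786 over the 7 omissions of 1 array.

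The other genes named in D against M were Cdk2 and E2f2, neither of which passed. Cdk2 stood at 3.29, 3.21 and 3.16 in M and at 3.21, 2.67, 2.03 and 2.40 in D. D replicate 1 lay within the M range and the other D arrays below it. The difference was −0.64 with an SE of 0.20 (95% interval from −1.05 to −0.23, adjusted p = 0.0969). Without D replicate 1 it was −0.85 (adjusted p = 0.00329), and with neither D replicate 1 nor 3 it was −0.68 (adjusted p = 0.0214). That of D replicate 1 was the 1 omission of 7 that gave the call (adjusted p up to 0.274 over the 7). Cdk2 was called in 4 of 12 other settings (adjusted p up to 0.721). E2f2, a transcription factor of the E2F family, read 3.12, 2.85 and 3.12 in M and 2.56, 2.83, 2.27 and 2.81 in D, and the 2 sets did not overlap. Its difference was −0.41 with an SE of 0.13 (adjusted p = 0.128). With slide as a block the test called 4 genes, Myc (0.99), Cdk2 (−0.67), E2f2 (−0.44) and Ccnd3 (−0.52), against 1 without it.

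**Figure D1:**
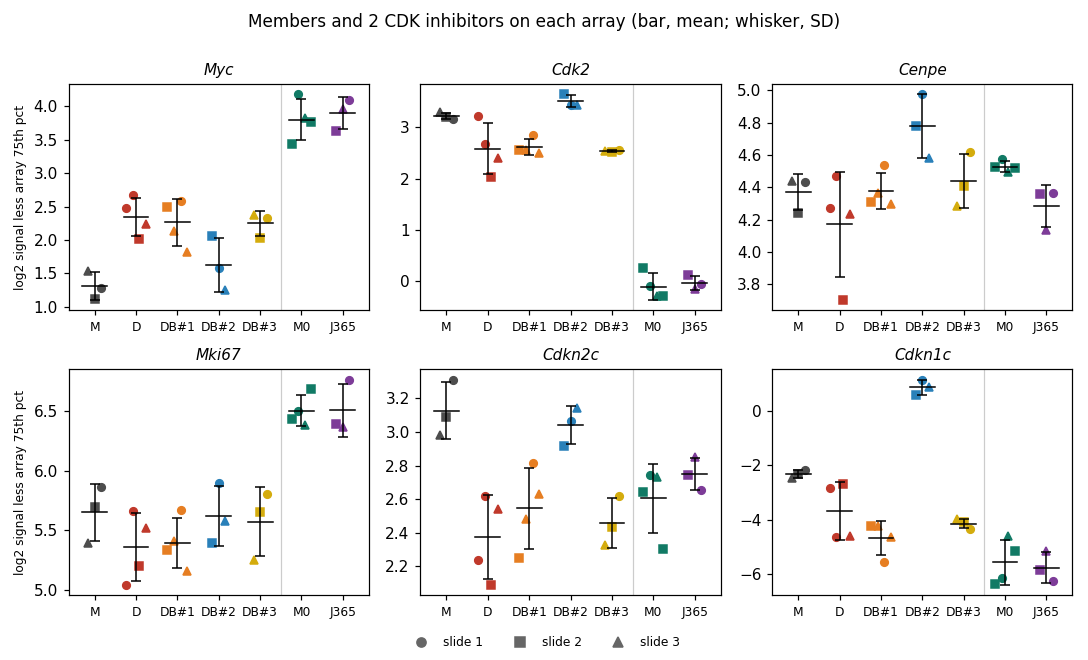
Normalized log2 signal (array's 75th percentile at 0) of Myc, Cdk2, Cenpe, Mki67, Cdkn2c and Cdkn1c on each array by cell line; a bar is the line's mean, the whisker its SD over 3 or 4 arrays, and the marker's shape the slide. The 4 D arrays lie between 2.01 and 2.67 for Myc, above the 3 M arrays at 1.12 to 1.54, and the 3 DB#2 arrays lie at 0.60 to 1.15 for Cdkn1c, where the other lines lie below 0.

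By role, the D less M medians were 0.13 for the 9 licensing and fork genes (range 0.03 to 0.26), −0.05 for the 4 nucleotide genes, 0.02 for the 8 G1 cyclins and kinases, 0.06 for the 5 transcription factors, −0.12 for the 4 mitotic cyclins and Cdk1 genes, 0.09 for the 9 mitotic kinase and checkpoint genes and −0.16 for the 10 chromosome and spindle genes (range −0.33 to 0.05). Apart from Myc no gene of these groups passed the test. Without D replicate 3 the median over the 50 genes was 0.09, with 33 genes higher and 17 lower, and with neither D replicate 1 nor 3 it was 0.13, with 34 higher and 16 lower, so the balance of signs depended on these arrays. It also depended on M replicate 2, which read below the mean of the melanoma arrays in 38 of the 48 genes: without it 15 genes were higher and 35 lower (median −0.09).

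In DB#1 against M, 1 of 50 genes passed, beside 3.69% of the 20708 genes tested (2.05% higher). It was again Myc, at 2.50, 2.14, 2.59 and 1.82 in DB#1. These 4 arrays lay above the 3 M arrays. The difference was 0.95 with an SE of 0.23 (95% interval from 0.48 to 1.42, 1.93-fold, adjusted p = 0.0163), and within slides it was 1.31, 1.38 and 0.45. The call was lost in 4 of the 7 omissions of 1 array, namely of M replicate 2, M replicate 3, DB#1 replicate 1 and DB#1 replicate 3 (adjusted p up to 0.112). It was also lost with no filter on dim probes and with only the arrays compared, where Cdk2 was called instead (−0.60, adjusted p = 0.0362). Cdk2 stood at 2.56, 2.56, 2.85 and 2.50 and differed from M by −0.60 (adjusted p = 0.113). Mybl2, which encodes B-Myb, read 3.85, 4.24, 4.57 and 4.17 against 3.67, 3.44 and 3.83 in M, and its difference of 0.56 did not pass (adjusted p = 0.196; with slide as a block it did, 0.57, adjusted p = 0.0251).

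Over the 50 genes the DB#1 less M median was 0.16, against 0.04 over all genes tested, with 39 genes higher and 11 lower (78% higher, and 55.4% of all genes tested). For the licensing and fork genes it was 0.26, with all 9 higher at 0.17 to 0.43, and for the mitotic kinase and checkpoint genes 0.28, with all 9 higher at 0.10 to 0.35 by the fitted value. None of the genes in these groups passed the test, and 9 of the 50 reached an unadjusted p under 0.05. Without M replicate 2 the numbers over the 50 genes were 33 higher and 17 lower, with a median of 0.09.

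In DB#3 against M, 1 of 50 genes passed, beside 2.76% of the 20581 tested (1.61% higher). Myc stood at 2.37, 2.04 and 2.33 in DB#3, above the M arrays. The difference was 0.93 with an SE of 0.24 (95% interval from 0.43 to 1.44, 1.91-fold, adjusted p = 0.0376), at 1.05, 0.91 and 0.84 within slides. This call was lost in all 6 omissions of 1 array (adjusted p 0.0534 to 0.191), and it was called in 10 of the other 11 settings. Cdk2 stood at 2.54, 2.52 and 2.56, all below the M arrays, with a difference of −0.68 (adjusted p = 0.111). Mybl2 stood at 4.15, 4.17 and 4.61, a difference of 0.66 (adjusted p = 0.169; with slide as a block it passed, 0.66, adjusted p = 0.0171). The median over the 50 genes was 0.17, against 0.03 over all genes, with 41 higher and 9 lower (82% higher, and 54.3% of all genes tested). Without M replicate 2 it was 0.10, with 38 higher and 12 lower.

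In DB#2 against M, none of the 50 genes passed the test (limma, 0 called; 1 at an unadjusted p under 0.05), beside 3.44% of the 20951 genes tested. The 3 genes with the smallest p were Cenpe, Cdk6 and Nusap1. Cenpe, a motor protein of the kinetochore, read 4.44, 4.24 and 4.43 in M and 4.78, 4.98 and 4.58 in DB#2. The 2 sets did not overlap, and the difference was 0.41 (adjusted p = 0.260). Cdk6, a kinase of D-type cyclins, differed by 0.56 (adjusted p = 0.443) and Nusap1, a spindle protein, by −0.34 (adjusted p = 0.646). Myc stood at 2.06, 1.59 and 1.25 in DB#2 and overlapped M, with a difference of 0.31 (95% interval from −0.19 to 0.82, adjusted p = 0.764). Within the 3 slides it was 0.30, 0.93 and −0.29. The median over the 50 genes was 0.05, with 30 higher and 20 lower, and without M replicate 2 there were 22 higher and 28 lower.

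Ccnd1, the gene of cyclin D1, read 4.72, 3.92 and 3.94 in M, 6.0, 4.72, 4.24 and 4.69 in D, 5.43, 4.56, 4.82 and 4.41 in DB#1, 4.99, 4.32 and 3.84 in DB#2 and 5.30, 4.77 and 5.04 in DB#3. M replicate 1 lay within the range of D and DB#1, and the 3 DB#3 arrays lay above the M arrays. The intervals were wide, and the differences from M, 0.72 in D (95% interval from −0.10 to 1.55), 0.62 in DB#1, 0.19 in DB#2 and 0.85 in DB#3, did not pass (adjusted p from 0.540 to 0.995). With the replicate number as a block Ccnd1 was called in DB#3 (1.30, adjusted p = 0.0382).

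Ccnd3, which encodes cyclin D3, read 7.17, 6.94 and 7.17 in M and 6.83, 6.63, 6.21 and 6.75 in D. The 2 sets did not overlap, and the 4 DB#1 arrays (6.66 to 6.69) and 3 DB#2 arrays (6.69 to 6.84) also lay below M, while DB#3 replicate 5 (6.95) did not. The differences from M were −0.49 in D (95% interval from −0.87 to −0.10, adjusted p = 0.237), −0.42 in DB#1, −0.31 in DB#2 and −0.32 in DB#3, none of which passed. Under quantile normalization Ccnd3 was called in all 4 lines, at −0.57, −0.66, −0.50 and −0.53 (adjusted p from 0.000431 to 0.0111). In D it was also called with slide as a block and the scaling unchanged (−0.52, adjusted p = 0.0461). Its call thus depended on the scaling and, in D, on the slide term as well. Cdk4, the kinase of the D-type cyclins, differed by −0.33 in D (adjusted p = 0.373), −0.15 in DB#1, 0.07 in DB#2 and −0.16 in DB#3.

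Among the later genes the differences from M were small and did not pass. Pcna, the sliding clamp of the replication fork, read 6.49, 6.18 and 6.62 in M and 6.77, 6.70, 6.08 and 6.63 in D, and the differences were 0.12 in D, 0.24 in DB#1, −0.08 in DB#2 and 0.24 in DB#3. Top2a, the topoisomerase that untangles sister chromosomes, read 4.94, 4.71 and 5.07 in M and 4.80, 5.0, 4.35 and 4.80 in D, with differences of −0.17, −0.11, 0.07 and −0.04. For both genes M and D overlapped, with D replicate 3 the lowest array of D. Aurka, a kinase of the spindle poles, differed by 0.09 in D, 0.35 in DB#1 (95% interval from 0.04 to 0.67, adjusted p = 0.290), 0.05 in DB#2 and 0.39 in DB#3 (from 0.05 to 0.72, adjusted p = 0.349).

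**Figure D2:**
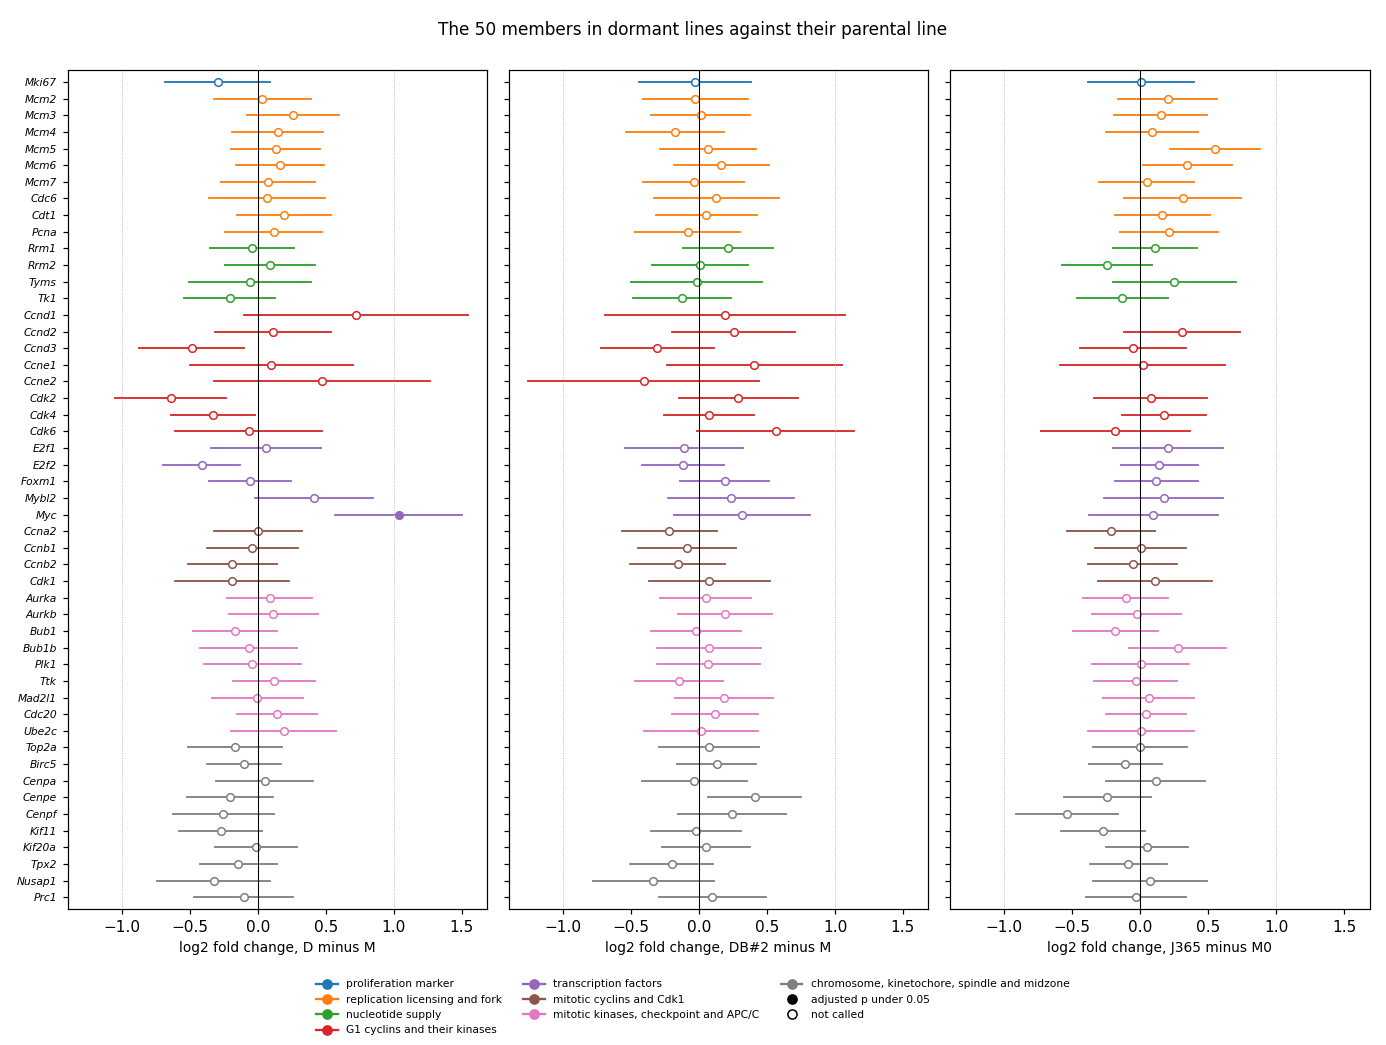
Fitted log2 difference of each of the 50 genes with its 95% interval, grouped by role, for D less M, DB#2 less M and J365 less M0; a filled marker is a gene called at an adjusted p under 0.05 and the vertical line is 0. Most intervals lie within 1 on either side of 0, and Myc in D (1.04) is the filled marker; Ccnd1 and Ccne2 are not drawn for J365, where they were not above background.

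The second-generation lines were also compared with D, the line they followed. DB#2 differed from D in 2 of the 50 genes, beside 6.34% of the 20651 tested (3.9% higher). Cdk2 stood at 3.65, 3.44 and 3.44 in DB#2. All 3 lay above the 4 D arrays. The difference was 0.93 with an SE of 0.20 (95% interval from 0.52 to 1.34, 1.91-fold, adjusted p = 0.00499), and it was called in all 7 omissions of 1 array. With only the arrays compared it was not called (adjusted p = 0.244). Within slides it was 0.50, 1.61 and 1.04. Cenpe stood at 4.27, 4.47, 3.70 and 4.23 in D, below the 3 DB#2 arrays, with a difference of 0.61 (SE 0.15, 95% interval from 0.29 to 0.93, 1.53-fold, adjusted p = 0.0171). It was not called without DB#2 replicate 1, without DB#2 replicate 2 or with neither D replicate 1 nor 3. The call was also lost with no filter on dim probes and with only the arrays compared. Myc was lower in DB#2 by 0.72 in the fit, outside the threshold (adjusted p = 0.0622). Myc's second probe gave −1.08, and the mean of its probes was called (−0.90, adjusted p = 0.00929). It was also called with quantile normalization, scaling over detected probes and the replicate block. It was not called with no scaling, normexp, either of the other filters on dim probes, trended variances or only the arrays compared. Nor was Myc called with neither D replicate 1 nor 3. Of the omissions of 1 array, those of D replicate 3 and DB#2 replicate 1 gave the call. With slide as a block 5 genes were called, among them Myc at −0.68 (adjusted p = 0.0391).

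DB#1 and DB#3 were each compared with D and no member passed (limma, 0 called in both; 1 and 0 at an unadjusted p under 0.05), beside 0.475% of 20203 and 0.369% of 20033 genes tested. The fitted values were mostly above 0, 47 of 50 in DB#1 (median 0.14) and 46 of 50 in DB#3 (median 0.18), beside 59.9% (median 0.05) and 61.5% (median 0.06) of all genes tested. Without D replicate 3 the numbers were 29 of 50 and 38 of 50, and with neither D replicate 1 nor 3 they were 24 and 31 of 50 (medians −0.0048 and 0.03), so most of the excess of positive signs went with these arrays. Cdk2 differed from D by 0.04 in DB#1 (95% interval from −0.34 to 0.42) and by −0.04 in DB#3 (from −0.45 to 0.37). Cdk2 lies next to Pmel, a pigment-cell gene, on chromosome 10. Pmel averaged 9.08 ± 0.12 (SD, n = 3) in M, 8.69 ± 0.47 (n = 4) in D, 8.85 ± 0.11 (n = 4) in DB#1, 9.14 ± 0.13 (n = 3) in DB#2 and 8.86 ± 0.12 (n = 3) in DB#3, so that DB#2 had the highest mean of Pmel as of Cdk2 and M the next, though for Pmel these lines differed by less than their SD. Whether the neighbour has a part in the Cdk2 values was not tested.

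In the myeloid model J365 against M0 gave no call among the 48 genes tested (limma, 0 called; 3 at an unadjusted p under 0.05), beside 1.47% of the 20660 genes tested. All 48 intervals lay inside a 2-fold change, and the median was 0.05, against 0.02 over all genes. Mki67 stood at 6.44, 6.50, 6.38 and 6.68 in M0 and at 6.39, 6.37 and 6.76 in J365, a fitted difference of 0.00. The gene with the smallest p was Mcm5, which read 4.53, 5.03, 4.71 and 4.55 in M0 (the first of them the array without a number) and 5.34, 5.30 and 5.13 in J365. The 2 sets did not overlap, and the difference was 0.55 with an SE of 0.16 (95% interval from 0.22 to 0.88, 1.46-fold, adjusted p = 0.117). Mcm5 was called in 1 of the 7 omissions of 1 array, that of M0 replicate 1, the highest M0 array (adjusted p = 0.0415). Over the 7 the adjusted p reached 0.443, and it was called in 3 of 12 other settings. Within slides Mcm5 differed by 0.10, 0.80 and 0.59.

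Cenpf, a kinetochore protein made late in the cycle, read 3.09, 3.16, 3.04 and 3.27 in M0 and 2.58, 2.47 and 2.75 in J365. The sets did not overlap, and the difference was −0.54 (SE 0.18, adjusted p = 0.223). Mcm6, which like Mcm5 encodes a helicase subunit, read 6.67, 7.03, 6.81 and 6.60 in M0 and 7.06, 7.16 and 7.15 in J365, with a difference of 0.34 (adjusted p = 0.532). Myc differed by 0.10 (95% interval from −0.38 to 0.57). The 9 licensing and fork genes had a median of 0.20 (range 0.05 to 0.55). Without the arrays that carry no replicate number, 0 genes were called and the median over all members was −0.03, with 22 higher and 26 lower.

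The difference D less M of the melanoma lines was set against J365 less M0 of the myeloid lines as a difference of differences. No gene of the 50 passed (limma, 0 called; 4 at an unadjusted p under 0.05), beside 2.08% of the 23120 genes tested. For Myc the difference was 0.94 with an SE of 0.32 (95% interval from 0.27 to 1.61, adjusted p = 0.205), so the Myc differences of the 2 pairs of lines were not shown to differ. Under quantile normalization and under scaling to the detected probes Myc was called (adjusted p = 0.0416 and 0.0470).

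**Figure D3:**
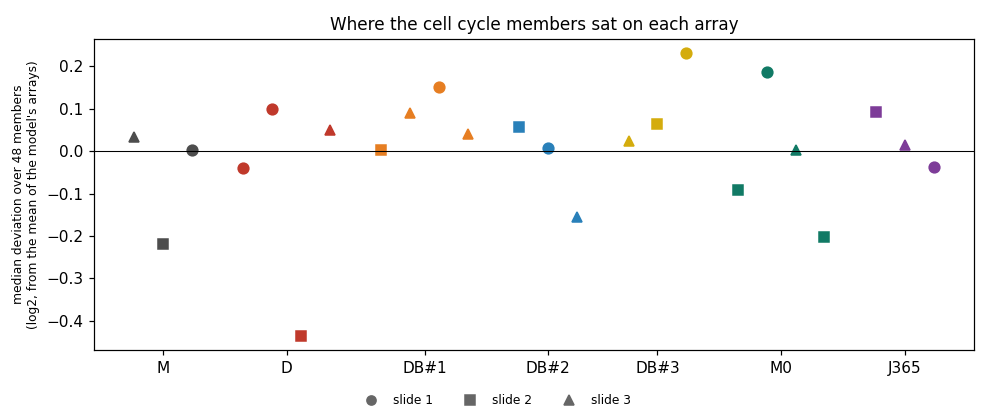
Median deviation of 48 genes on each array from the mean of its model's arrays (log2), by cell line. D replicate 3 stands lowest at −0.44, DB#3 replicate 5 highest at 0.23, and the other arrays lie between −0.22 (M replicate 2) and 0.19.

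M and M0, the lines that the others of each cell type were set against, differed in more of these genes. Of 50 genes, 29 were called between M and M0, 17 higher in M and 12 lower, beside 58.5% of the 22426 genes tested (27.7% higher and 30.8% lower), so the share of members called was close to that of the whole array. The comparison is one of 2 cell types. The 5 largest were Ccnd1, Cdk2, Cdk6, Myc and Tk1. Ccnd1 stood at 4.72, 3.92 and 3.94 in M and was not well above background on any myeloid array, so it was at least 311-fold higher in M (measured means 4.19 and −6.24, adjusted p = 3.20e-15). Cdk2 was 10.1-fold higher in M (3.33, SE 0.20, adjusted p = 6.16e-12). Its highest myeloid array was 0.25, below the lowest melanoma array at 2.03.

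Cdk6 was lower in M by 3.04 (8.23-fold, adjusted p = 2.61e-09), at −3.10, −3.84 and −3.53 in M against −0.17, −0.25, −0.70 and −0.68 in M0. Myc was lower in M by 2.49 (5.61-fold, adjusted p = 6.57e-09), at 3.43, 4.18, 3.83 and 3.77 in M0, and the M and M0 sets of both genes did not overlap. Tk1, which encodes the thymidine kinase of S phase, was higher in M by 1.62 (3.07-fold, adjusted p = 2.86e-08), at 5.89, 5.45 and 5.54 in M against 4.23, 4.12, 4.11 and 3.59 in M0. Probes of a gene disagreed in sign for Mcm3, Mcm7, Ccnd3, Cdk4, Ccna2 and Cenpf, none of which was called.

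**Figure D4:**
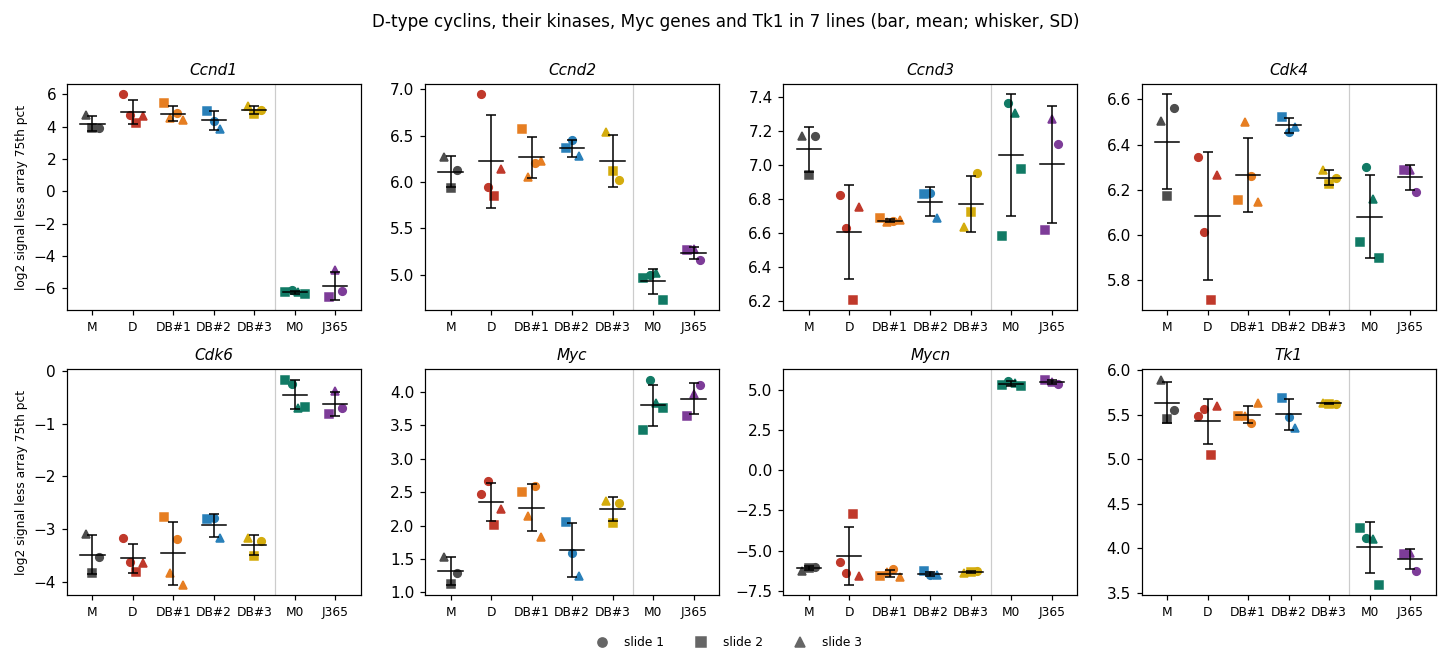
Normalized log2 signal of Ccnd1, Ccnd2, Ccnd3, Cdk4, Cdk6, Myc, Mycn and Tk1 on each array by cell line, with the line's mean and SD. Ccnd1 lies near −6 on 6 of 7 myeloid arrays and at −4.87 on J365 replicate 1, all not well above background, and at 3.84 to 6.0 on the melanoma arrays; Mycn is read in M0 and J365 and on D replicate 3, at −2.71.

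By role, called members higher and lower in M than in M0 were 3 and 0 of 9 in licensing and the fork (Mcm2, Cdc6 and Pcna), 3 and 0 of 4 in nucleotide supply (Tk1, Tyms and Rrm1), 4 and 1 of 8 among G1 cyclins and kinases (Ccnd1, Ccnd2, Ccne1 and Cdk2 higher, Cdk6 lower) and 2 and 3 of 5 among the transcription factors (E2f1 and Foxm1 higher, Myc, Mybl2 and E2f2 lower). They were 1 and 1 of 4 among the mitotic cyclins with Cdk1 (Cdk1 higher, Ccnb2 lower), 2 and 3 of 9 among the mitotic kinases and checkpoint genes (Mad2l1 and Aurkb higher, Ttk, Cdc20 and Bub1 lower) and 2 and 3 of 10 among the chromosome and spindle genes (Prc1 and Birc5 higher, Nusap1, Kif11 and Top2a lower). Mki67 was lower in M, at −0.85 (adjusted p = 0.000547). The genes not called were Mcm3, Mcm4, Mcm5, Mcm6, Mcm7, Cdt1, Rrm2, Ccnd3, Ccne2, Cdk4, Ccna2, Ccnb1, Aurka, Bub1b, Plk1, Ube2c, Cenpa, Cenpe, Cenpf, Kif20a and Tpx2, so that of the 6 helicase subunits only Mcm2 was called.

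**Figure D5:**
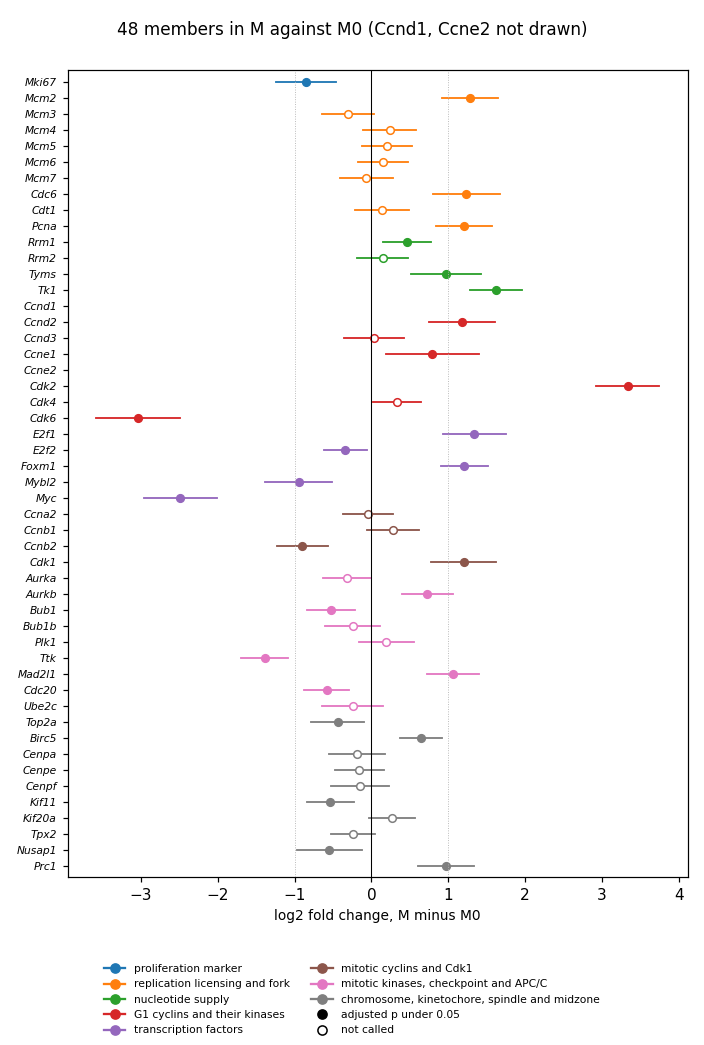
Fitted log2 difference M less M0 of 48 genes with its 95% interval, grouped by role; a filled marker is a gene called at an adjusted p under 0.05 and Ccnd1 and Ccne2, each with a bound only, are not drawn. Cdk2 lies at 3.33 and Cdk6 at −3.04, the ends of the range.

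The other genes of the cycle were described in the same way. A list of 151 genes in replisome, mitosis, retinoblastoma and E2F, kinase inhibitor, Myc network and antiproliferative groups gave, higher and lower, 0 and 1 of 147 tested in D against M, 0 and 2 in DB#1, 1 and 1 in DB#2, 0 and 1 in DB#3, 4 and 2 in DB#2 against D, none in DB#1 or DB#3 against D (146 tested each), none in J365 against M0 (148 tested) and 48 and 39 of 150 in M against M0. In all, 0.68% of the listed genes tested were called in D against M, 4.08% in DB#2 against D and 58.0% in M against M0, beside 2.97%, 6.34% and 58.5% of all genes tested. Cdkn2c, an inhibitor of Cdk4 and Cdk6, was called lower than in M in D (−0.76, SE 0.16, adjusted p = 0.00842), DB#1 (−0.58, adjusted p = 0.0457) and DB#3 (−0.67, adjusted p = 0.0349), and its mean was 3.13 in M, 2.37 in D, 2.54 in DB#1, 3.04 in DB#2 and 2.46 in DB#3. The D call was lost without M replicate 3, with no scaling, with only the arrays compared and with neither D replicate 1 nor 3 (adjusted p up to 0.282). The DB#1 call was lost in 6 of 7 omissions of 1 array (it was kept without DB#1 replicate 3) and in 5 of 11 other settings. Among these was the replicate block, fitted over all lines rather than to DB#1 and M as pairs (−0.62, adjusted p = 0.0721). The DB#3 call was lost in all 6 omissions and in 3 of 11 other settings, the replicate block among them. Cdkn1c, which encodes the kinase inhibitor p57, was higher in DB#2 than in M by 3.19 (adjusted p = 0.000419), while DB#1 was called lower than M with 1 of 4 DB#1 arrays above background, so the size of its difference depended on the background correction (−2.35 in the fit, adjusted p = 0.00464, and −0.85 with normexp).

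Tfdp2, a partner of E2F, was lower in DB#2 than in M (−0.96, adjusted p = 0.0150; not called without M replicate 3 or without DB#2 replicate 1). Against D, DB#2 was higher in Cdkn1c (4.56, adjusted p = 1.82e-06, with 2 of 4 D arrays above background), in E2f8, a repressor of the E2F family (0.72, adjusted p = 0.000984), and in Cdkn2c (0.67, adjusted p = 0.0123). It was lower in Pkmyt1, an inhibitory kinase of Cdk1 (−0.52, adjusted p = 0.0339), and Kif15, a mitotic motor (−0.47, adjusted p = 0.0451). Over the 7 omissions of 1 array, Cdkn1c and E2f8 were called in 7, Cdkn2c in 5 (not without DB#2 replicate 2 or 3), Pkmyt1 in 2 (without D replicate 1 or 3) and Kif15 in 1 (without D replicate 1). In the difference of differences between the models Cdkn2c was the 1 gene of the lists that was called (−0.90, adjusted p = 0.0414), in 3 of the 14 omissions of 1 array.

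Between M and M0, Mycn, a relative of Myc, was not well above background on any M array and stood at least 819-fold higher in M0 (means −6.10 and 5.39, adjusted p = 1.73e-13). The kinase inhibitors Cdkn2b and Cdkn2a, also not above background in M, were at least 27.9-fold and 10.3-fold higher in M0 (adjusted p = 1.73e-08 and 2.60e-06). The antiproliferative gene Btg3 was higher in M by 8.60 in the fit (adjusted p = 4.97e-13, with 2 of 4 M0 arrays above background), Foxo1, a transcription factor that restrains the cycle, by 4.80 (adjusted p = 1.74e-12), and Cdkn1c at least 3.42-fold (adjusted p = 6.96e-06). Of the 46 replisome genes 16 were called higher and 7 lower in M, and of the 61 mitosis genes 18 and 14, beside 27.7% higher and 30.8% lower of all genes tested.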

How the data were processed

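RNA from 7 mouse lines was hybridised to 24 one-colour Agilent arrays labelled with cyanine 3. The authors deposited, for each array, scanner tables made with Agilent Feature Extraction 10.7.3.1 (per the labels), in which gProcessedSignal is a linear intensity corrected for background, with a surrogate for low signals and no scaling between arrays. A deposited series table held the same intensity values (1511424 of 1511424 equal) and served as the setting without scaling. The study's methods name GeneSpring for the later steps; its scaling and test are not given in the sources used here.

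Control spots were left out, as were 117 of 56605 probes with an outlier mark on any array, and no value was saturated. Values were log2 intensity minus the array's 75th percentile. Probes were named by accession through RefSeq (GRCm38.p6), for names and order only (32917 probes, 22881 symbols), and the promoter windows are RefSeq's own. Lines were compared with limma 3.58.1 in R 4.3.3 (lmFit and eBayes, 1 model over 24 arrays, with 7 line means and 17 residual df), with Benjamini-Hochberg adjustment over all genes tested in a comparison and a call at an adjusted p under 0.05. A gene was tested if its brightest probe was well above background on every array of at least 1 line compared. Where a probe was above background on no array of a line, a fold is a lower bound: the mean of the other line against the dimmest signal that each array read well above background, or the probe's own if higher. The fit was tested on simulated data. The 10 comparisons, the members and the gene lists were chosen with earlier results of these data known.

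Members given in full were, for each dormant line against M and for J365 against M0, those called, up to 8, and where fewer than 3 were called the 3 with the smallest p; in other comparisons up to 5 called members with the largest change. Mki67 was given throughout, and Ccnd1, Ccnd3, Cdk4, Pcna, Top2a and Aurka in the dormant lines were chosen after their values were seen. Of the other cell cycle genes, up to 3 called in each direction per comparison are named. Alternatives were slide as a block, replicate number as a block, quantile normalization, scaling over detected probes, no scaling, normexp (offset 50), the mean of a gene's probes, other filters on dim probes, only the arrays compared, trended variances and leaving out each array. The tables hold no mean signal, so normexp used the median signal and median background. Same-numbered arrays of DB#1 and M deviated together from their lines' means (r = 0.655, 0.567 and 0.911 over 15768 genes), so the numbers may pair these samples. The correlations alone cannot show a pairing, and replicate 3 of both lines also lay on slide 1. The block was a common effect of the replicate number over all lines, and no fit paired DB#1 with M alone. Elsewhere same-numbered arrays could deviate in opposite directions (r = −0.793 for replicate 3 of DB#3 and M). In DB#1 against M the block made the same number of calls. The precision is limited by 3 or 4 arrays per line.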

Additional observations from a re-analysis of the deposited data

Results flagged for a closer look

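Among 148 sets of 4 arrays of 1 line and gene, 10 held an array farther from the others than Dixon's 95% limit for 4 samples, and chance gives about 1 in 20. In DB#1, Mcm5 was low on replicate 1 (4.97, others 5.23 to 5.25), and Cdk2 (2.85, others 2.50 to 2.56), Bub1b (1.87, others 1.52 to 1.55) and Cenpf (3.1, others 2.75 to 2.81) were high on replicate 3. In D, Mcm7 (5.04, others 5.62 to 5.70) and Ccne1 (4.08, others 4.69 to 4.75) were low on replicate 3, the array with 89.9% of probes above background. In M0, Ccnd2 was low on replicate 3 (4.73, others 4.97 to 5.01), Foxm1 was low on the array without a number (2.80, others 3.36 to 3.44), and Top2a (5.66, others 5.23 to 5.25) and Kif11 (2.00, others 1.72 to 1.73) were high on replicate 1.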

How the results depend on the processing

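The number of the 50 genes called kept within 1.5 times in M against M0 (29; 25 to 30 when 1 array was left out; 31 with slide as a block) and at 0 in DB#1 and DB#3 against D under the alternatives run. In D against M (1 called) it was 4 with slide as a block, 5 with quantile normalization, 3 with scaling over detected probes, 0 with only the arrays compared, 2 with neither D replicate 1 nor 3, and 0 to 2 when 1 array was left out. In DB#1 against M (1) it was 2, 3, 2 and 2 with slide as a block, quantile normalization, scaling over detected probes and no scaling, 0 with no filter, and 0 to 1 with 1 array left out. In DB#2 against M (0) it was 1 with quantile normalization and 1 with no scaling. In DB#3 against M (1) it was 2, 3, 2, 2 and 2 with slide as a block, quantile normalization, scaling over detected probes, only the arrays compared and the replicate block, 0 with no filter, and 0 in all 6 omissions. In DB#2 against D (2) it was 5, 4 and 5 with slide as a block, quantile normalization and scaling over detected probes, 1 with no filter, 0 with only the arrays compared, 1 with neither D replicate 1 nor 3, and 1 to 3 with 1 array left out. In J365 against M0 (0) it was 1, Mcm5, with quantile normalization, scaling over detected probes and no scaling, and 0 to 1 with 1 array left out. In the difference between models (0) it was 1 with quantile normalization and with scaling over detected probes, and 0 to 1 with 1 array left out. The cause was not tested. Cdk6 in DB#2 less M turned to -0.076 within slide 3. With the replicate number as a block, the calls were 1 in D, 1 in DB#1, 0 in DB#2 and 2 in DB#3 against M, 3 in DB#2 against D, 0 in DB#1 and DB#3 against D, 0 in J365 against M0, 29 in M against M0 and 0 in the difference. Signs of pairing by number were clearest for DB#1 and M. For DB#2 and D they were mixed (r = 0.042, 0.846 and 0.646), and Myc was among the 3 genes called there (−0.82, adjusted p = 0.0222). No scaling moved the median of all genes by 0.17 in D against M and 0.25 in DB#2 against M. Leaving out the arrays without numbers, or D replicates 1 and 3, was chosen after seeing the data.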
